A study of Mus musculus with 2 samples.

Results

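Divergent bidirectional promoters are stretches of DNA from which 2 neighbouring genes are transcribed away from each other, one on each strand. They were chosen from the GENCODE M21 annotation of the mouse genome (mm10, chromosomes 1 to 19) alone: pairs of protein-coding genes on opposite strands whose 5'-most transcription start sites (TSSs) lie at most 1000 bp apart, with the minus-strand gene to the left. The rule found 735 pairs, which hold 1450 of the 20807 protein-coding genes on those chromosomes (6.97%) and form 715 separate loci. Each region ran from TSS to TSS with 500 bp added on each side. Chromatin was assayed by DNase-seq in whole embryos at 11 days, of the B6NCrl strain, male and female pooled, in 1 group of 2 biological replicates. The replicates have a separate biosample entry each and share a donor entry, and whether they came from different litters is not given in the labels. DNase I cuts DNA where it is not covered by nucleosomes, and each replicate has a list of peaks, 150 bp wide with a score, and a list of hotspots, which are wider stretches of significant cutting. The depth is unknown, because neither the lists nor the labels hold read numbers. A whole embryo mixes many tissues, so a site that is open in more cells and one that is more open per cell cannot be told apart.

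Replicate 1 had 204697 peaks and replicate 2 had 231103, and peak scores ran from 1 to 150 with a list median of 45 in replicate 1 and 50 in replicate 2. Of 10 markers of embryonic tissues, 9 had a peak in both replicates at the 5'-most TSS. These were Sox2, Pax6, Tubb3, Myog, Nkx2-5, Tbx5, Kdr, Klf1 and Trp63, and the other one, Hnf4a, had a peak at another of its TSSs. Over all protein-coding genes, 66.0% had a peak of both replicates within 500 bp of the 5'-most TSS. The placental genes Prl3d1 and Prl8a2 and the macrophage gene Csf1r had no peak at any TSS.

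Divergent promoters are common in mammalian genomes, and many of them lie in CpG islands and serve genes that most cells use, such as those of DNA repair, mitochondria and cell division. A short stretch between both TSSs carries binding sites that either gene can use. The CCAAT box bound by NF-Y, the GC box bound by SP factors, the ETS site bound by GABP and other ETS factors and the NRF1 and YY1 sites are typical of such promoters. TATA boxes are more typical of promoters that work in few tissues.

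The letters between both TSSs are given first for 6 pairs with a peak in both replicates and different motif content, from the plus strand of mm10 as in RefSeq's copy of the assembly. Capitals mark the letters of 10 motifs searched on both strands, among which the CCAAT box (CCAAT, or ATTGG on the other strand) and the GC box (GGGCGG or CCGCCC) were the commonest.
Xrcc3/Zfyve21, chr12:111813874-111814169: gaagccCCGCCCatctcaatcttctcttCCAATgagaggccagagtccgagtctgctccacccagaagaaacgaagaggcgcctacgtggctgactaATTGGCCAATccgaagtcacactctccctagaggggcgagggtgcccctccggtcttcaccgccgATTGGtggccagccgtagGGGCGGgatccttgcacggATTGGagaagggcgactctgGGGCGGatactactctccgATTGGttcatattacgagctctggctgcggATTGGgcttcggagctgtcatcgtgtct
Mrps12/Sars2, chr7:28741821-28741991: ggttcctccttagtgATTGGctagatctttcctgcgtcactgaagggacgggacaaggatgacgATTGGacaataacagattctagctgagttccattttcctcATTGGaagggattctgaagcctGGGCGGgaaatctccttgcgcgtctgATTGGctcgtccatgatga
Dtl/Ints7, chr1:191575545-191575635: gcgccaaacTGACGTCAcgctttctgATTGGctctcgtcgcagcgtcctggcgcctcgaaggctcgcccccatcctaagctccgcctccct
Hs2st1/Selenof, chr3:144570182-144570303: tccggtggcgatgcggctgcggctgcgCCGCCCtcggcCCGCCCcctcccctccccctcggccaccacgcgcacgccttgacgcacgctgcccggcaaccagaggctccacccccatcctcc
Sdhd/Timm8b, chr9:50603813-50603909: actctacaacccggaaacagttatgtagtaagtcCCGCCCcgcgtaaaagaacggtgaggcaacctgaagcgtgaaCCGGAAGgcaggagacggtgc
Polk/Col4a3bp, chr13:96542580-96542617: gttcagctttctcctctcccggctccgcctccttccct
The first of these, between a recombination repair gene and an endosomal FYVE protein gene, held 7 CCAAT boxes in 296 bases. The stretch between Mrps12, a mitochondrial ribosomal protein gene, and Sars2, the mitochondrial seryl-tRNA synthetase gene, held 4 in 171 bases. That between Polk and Col4a3bp held no searched motif in its 38 bases.

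The second set shows pairs with a weak peak or none, for contrast in CpG and motif content.
Col4a4/Col4a3, chr1:82586850-82586920: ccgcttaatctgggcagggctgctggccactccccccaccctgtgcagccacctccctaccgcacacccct
Rnf151/Rps2, chr17:24718064-24718115: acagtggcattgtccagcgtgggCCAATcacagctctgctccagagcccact
Nmur1/Tex44, chr1:86426229-86426328: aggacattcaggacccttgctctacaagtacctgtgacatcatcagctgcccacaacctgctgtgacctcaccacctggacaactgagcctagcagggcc
Patl2/Terb2, chr2:122186190-122186271: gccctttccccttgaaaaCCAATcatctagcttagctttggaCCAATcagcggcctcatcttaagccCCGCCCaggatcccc
Hist1h2ap/Hist1h2br, chr13:21833508-21833742: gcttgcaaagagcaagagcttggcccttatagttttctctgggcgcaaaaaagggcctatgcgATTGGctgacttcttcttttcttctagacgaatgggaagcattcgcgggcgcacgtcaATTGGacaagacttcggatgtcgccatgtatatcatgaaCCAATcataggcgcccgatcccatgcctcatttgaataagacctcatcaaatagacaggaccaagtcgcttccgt
Col4a4/Col4a3 and Rnf151/Rps2 had few CpG dinucleotides between their TSSs, 2 in 71 bases and 1 in 52 bases, and Nmur1/Tex44 had 0 in 100 bases. The histone pair had 13 in 235 bases together with 3 CCAAT boxes, yet no peak. When its region is cut into short words of bases, 100% of them also occur elsewhere in the genome. The part of such repeats in the missing peak was not tested.

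Nearly every divergent pair was open in the embryo. A peak lay in the region in both replicates for 711 of 735 pairs (96.7%, 95% Wilson interval 95.2 to 97.8), against 13779 of 20807 windows of the median pair length around all protein-coding genes (66.2%, 65.6 to 66.9). Intervals cover counting error only, and neighbouring genes are not independent. Replicate 1 had a peak in 711 pairs and replicate 2 in 713, a mean share of 96.9% ± 0.192 (SD, n = 2). Hotspots gave nearly the same picture, with 713 pairs (97.0%) covered in both replicates, against 67.1% of all genes. In 391 pairs (53.2%) the region held 2 or more peaks shared by both replicates, against 30.8% of all genes. Among regions with a peak in both replicates the gap was smaller, with 55.0% of pairs and 46.5% of all genes. With 250 bp added on each side the count was 227 pairs (30.9%), and no count over all genes is given for that width. A shared peak is a replicate 1 peak that overlaps a replicate 2 peak by at least 1 bp.

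The share was set beside that of other promoter arrangements, measured in the same lists. Divergent pairs with TSSs over 1000 and up to 2000 bp apart had a peak in both replicates in 83 of 104 regions (79.8%). Head-to-head genes whose first bases overlap, which the rule leaves out, had one in 435 of 445 (97.8%). Protein-coding genes with a divergent long noncoding RNA within 1000 bp had one in 665 of 752 (88.4%). Lone promoters, with no other protein-coding TSS within 5000 bp and no divergent long noncoding RNA, had one in 9799 of 15986 (61.3%). The Wilson intervals of divergent pairs and of overlapping head-to-head genes (95.9 to 98.8) overlapped, and those of the other 3 arrangements lay below, with upper bounds of 90.5 or less. At the edge of the rule the share showed no step: 14 of 15 pairs over 800 and up to 1000 bp apart were called, and 17 of 19 pairs over 1000 and up to 1200 bp apart. Called regions with 2 or more shared peaks were 55.0% in divergent pairs, 85.5% in those over 1000 bp apart and 72.4% in overlapping head-to-head genes. Genes with a divergent long noncoding RNA had 54.6% and lone promoters 44.0%. Regions of paired starts grow with the distance between them, whereas windows of lone promoters were all 1129 bp. The part of region length in these shares was not tested.

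**Figure D1:**
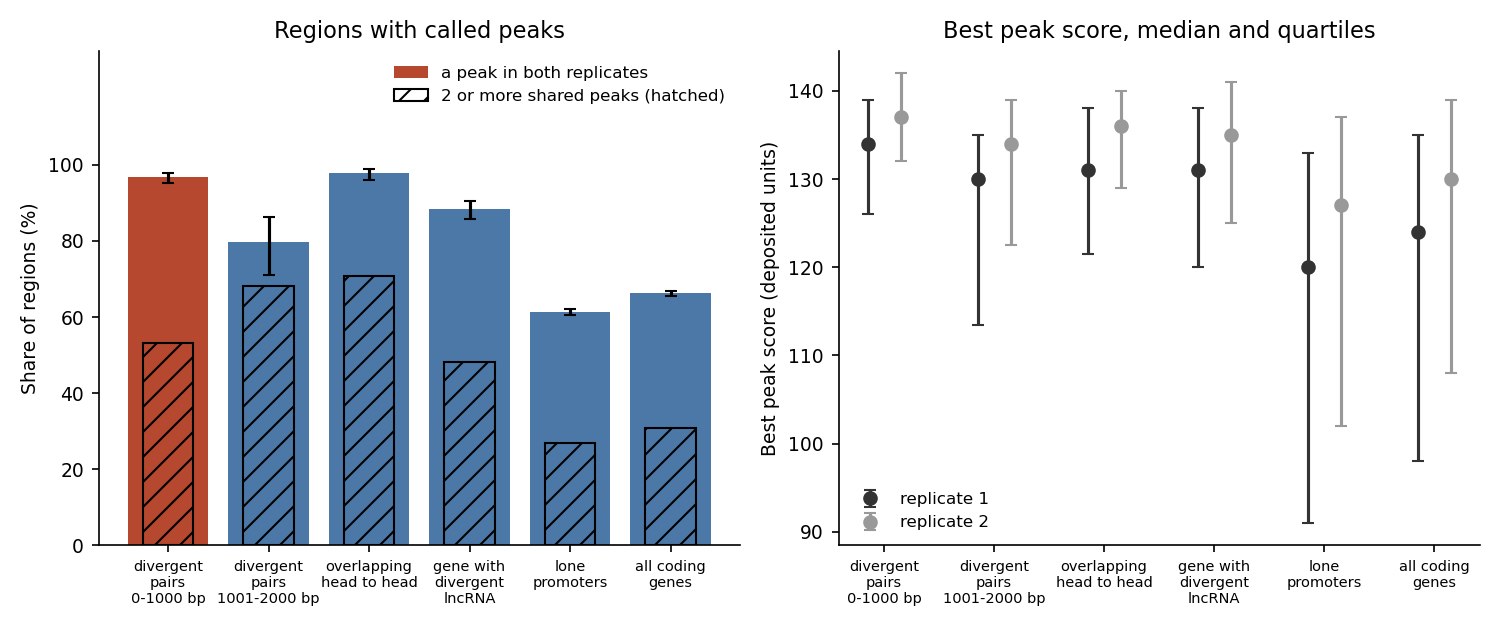
Left: share of regions (%) with a peak in both replicates (bars, with 95% Wilson intervals) and with 2 or more shared peaks (hatched), by promoter arrangement. Right: median (point) and quartiles (bars) of the best peak score over regions with a peak in both replicates, in deposited units on an axis that does not start at 0; divergent pairs have medians of 134 and 137, against 120 and 127 for lone promoters.

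Peaks in divergent pairs also stood high in their lists. The best peak of a called pair had a median score of 134 in replicate 1 (quartiles 126 and 139) and 137 in replicate 2 (132 and 142), a mean of 135.5 ± 2.12 (SD, n = 2). Medians over all protein-coding genes with a peak were 124 and 130, and those of lone promoters 120 and 127, so the difference from lone promoters was larger than that between replicates. In replicate 1, 86.5% of called pairs had a best peak among the top 5% of the whole list, against 56.1% of called genes, and in replicate 2 the shares were 89.9% of pairs and 60.5% of genes. The lower quartile differed more than the median: in replicate 1 it was 126 for divergent pairs and 91 for lone promoters. The hotspot value, a −log10 of a q value, was at its ceiling of 100 in 99.2% and 99.3% of called pairs, which leaves no order among them. The hotspot stretch common to both replicates had a median of 1266 bp in pairs, against 1050 bp at lone promoters. The other arrangements with 2 close starts were similar. Overlapping head-to-head genes had 1307 bp and median best scores of 131 and 136. Genes with a divergent long noncoding RNA had 1302 bp and scores of 131 and 135. Neither height nor width was thus particular to divergent pairs.

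Replicates ordered the pairs alike, with Spearman's rho 0.833 over 711 pairs, given as a description since all pairs share the same 2 libraries. Replicate 2 had the higher score in 519 pairs, replicate 1 in 147, and 45 were equal, with a median difference of 3. Scores lay more than 20 apart in 5 pairs. The best peak had the same position in both replicates in 386 pairs (54.3%) and a midpoint within 75 bp in 668 (94.0%). The only pairs called in 1 replicate were Aspa/Spata22 and Aspa/Gm49340, which are the same region, with a replicate 2 peak of score 23 in a hotspot of value 2.89.

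**Figure D2:**
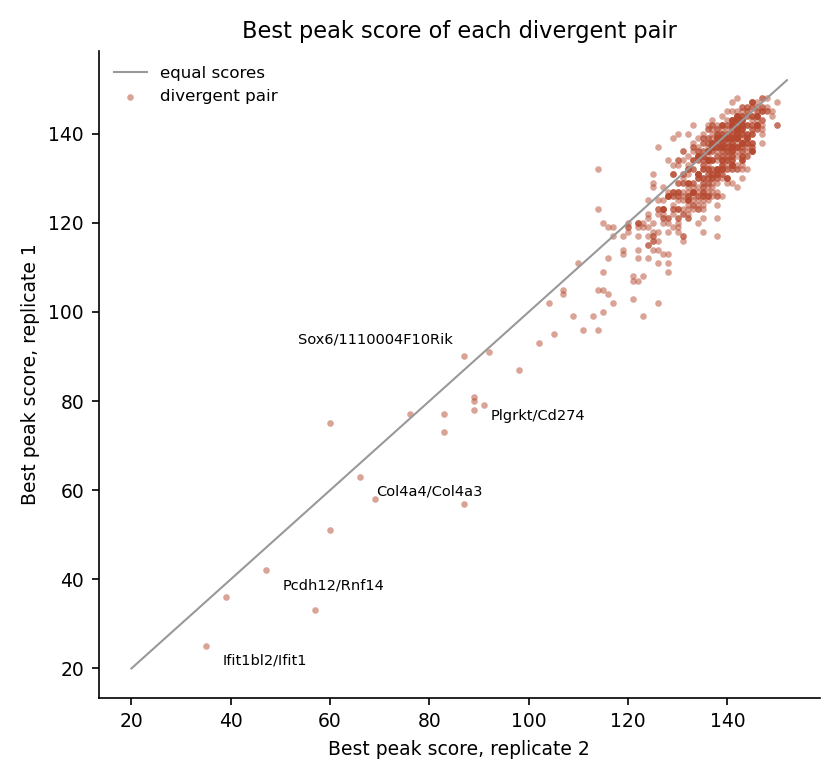
Best peak score of each of 711 divergent pairs in replicate 1 (y axis) and replicate 2 (x axis), in deposited units; the line marks equal scores. Most pairs lie above 120 in both replicates, and a thin tail of named pairs reaches down to Ifit1bl2/Ifit1 at 25 in replicate 1 and 35 in replicate 2.

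The pairs with the best mean rank of score, which describe the top of this list, joined genes of unlike roles. Hjurp/Trpm8 scored 147 in replicate 1 and 150 in replicate 2, with TSSs 28 bp apart. Hjurp loads the centromeric histone CENP-A, whereas Trpm8 is the cold-sensing channel of sensory neurons. Rbbp4/Zbtb8os scored 148 in both replicates, and Rbbp4 is a histone-binding subunit of several chromatin complexes. Foxa3/Sympk, 839 bp apart, and Xrcc3/Zfyve21, 297 bp apart, both scored 148 and 147. In Foxa3/Sympk the best peak covered the TSS of Sympk in both replicates, and another shared peak lay within 150 bp of the Foxa3 TSS. Foxa3 is a transcription factor of endoderm and liver, Sympk a scaffold of mRNA 3' end processing and Xrcc3 a protein of homologous recombination. Cdk5/Slc4a2, which pairs a neuronal kinase with an anion exchanger, scored 146 and 148. Dtl/Ints7, of a ubiquitin ligase that acts in S phase and of the Integrator complex, scored 146 and 147, as did Exd1/Chp1. Polk/Col4a3bp, a translesion polymerase and the ceramide transfer protein, scored 145 and 149. Hs2st1/Selenof and Nup98/Pgap2, the first with a heparan sulphate sulfotransferase and the second with a nuclear pore protein, each scored 145 and 148. Where the TSSs lie closer than a peak is wide, the peak cannot be assigned to either gene by its position.

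That was so for most pairs: the TSSs lay 0 to 987 bp apart with a median of 128 bp (quartiles 66 and 240), and 420 pairs (57.1%) were closer than the 150 bp of a peak. The closest were Nsa2/Gfm2 at 0 bp, Bag4/Lsm1 and Slc7a6os/Prmt7 at 1 bp and Dhrs1/Nop9 at 3 bp. Bag4/Lsm1 scored 140 and 145 with a single shared peak, and Nsa2/Gfm2 126 and 134 with 2. Widest apart were Btf3l4/Txndc12 at 987 bp, Asphd1/Sez6l2 at 981 bp and Zfyve26/Rad51b at 978 bp. Each of these 7 pairs had a peak in both replicates, as did 96.7% of all pairs.

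The place of open chromatin changed with the distance between the TSSs. A shared peak covered the centre of the stretch in 261 of 297 called pairs (87.9%) under 100 bp apart and in 162 of 195 (83.1%) from 100 to under 200 bp apart. The share was 68.6% of 51 pairs from 200 to under 250 bp, 66.7% of 42 from 250 to under 300 bp and 35.5% of 31 from 300 to under 350 bp. It was 2 of 12 pairs from 350 to under 400 bp, 2 of 20 from 400 to under 500 bp and 3 of 63 (4.76%) from 500 to 1000 bp. In most pairs up to about 300 bp apart some shared peak thus covered the centre, and in most wider pairs none did. A single shared peak lay in 161 of 297 pairs under 100 bp apart, 95 of 195 from 100 to under 200 bp and 39 of 93 from 200 to under 300 bp. In pairs 500 to 1000 bp apart the best peak of replicate 1 lay a median of 322 bp from the centre but 68.5 bp from the nearer TSS. In pairs from 200 to under 300 bp apart it lay 42.5 bp from the centre and 88.5 bp from the nearer TSS.

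Wider pairs also held more peaks. Of called pairs, 2 or more shared peaks lay in 45.8% under 100 bp, 50.8% from 100 to under 200 bp, 58.1% from 200 to under 300 bp, 77.8% from 300 to under 500 bp and 84.1% from 500 to 1000 bp. Regions grow with that distance by construction, and the part of the longer window in these shares was not tested. The best score did not grow in step: its replicate 1 medians over the same classes were 132, 137, 136, 136 and 134, and those of replicate 2 were 136, 138, 139, 140 and 138. A shared peak midpoint lay within 150 bp of both TSSs in 573 of 711 pairs (80.6%), of 1 TSS in 120 and of neither in 18. Where the TSSs lie up to 300 bp apart, 1 peak can count for both. Under 100 bp apart both TSSs had one in 286 of 297 pairs (96.3%). Among pairs from 300 to under 500 bp apart both TSSs had one in 31 of 63 (49.2%), and among those 500 to 1000 bp apart in 37 of 63 (58.7%).

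**Figure D3:**
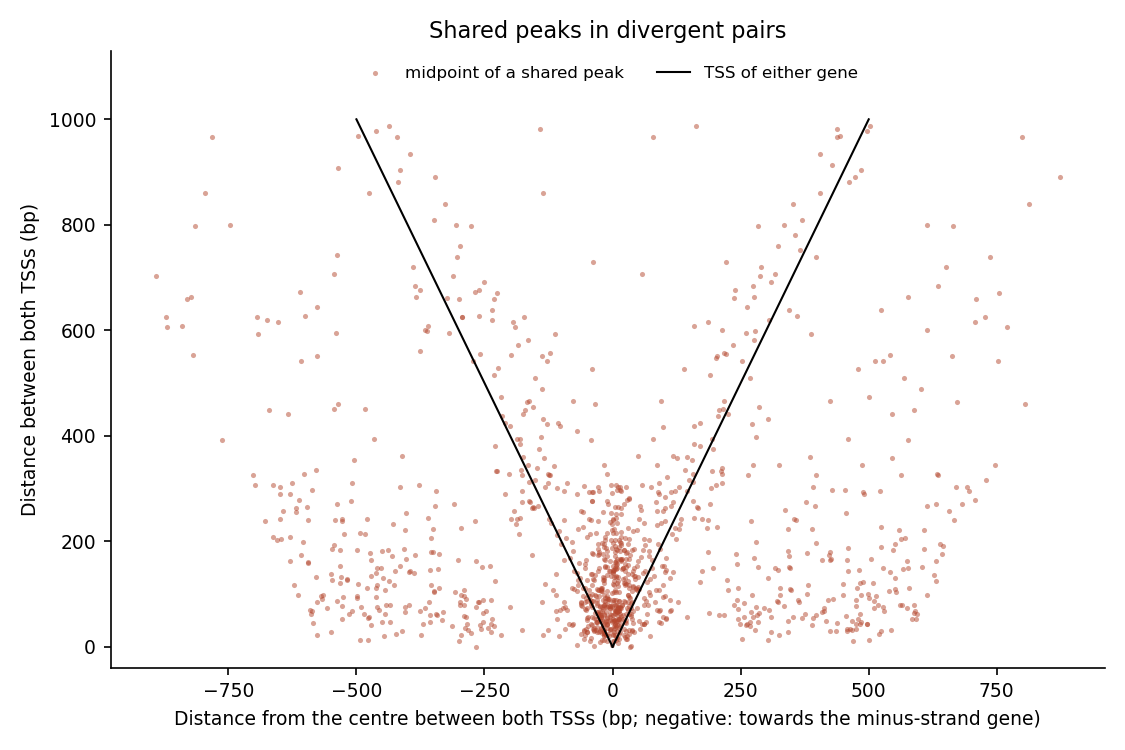
Midpoints of the 1247 shared peaks of divergent pairs (points) by distance from the centre between both TSSs (x axis, bp) and by the distance between the TSSs (y axis, bp); the 2 black lines mark the TSSs. Points gather at the centre up to about 300 bp and along the inner side of both TSSs above that.

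Peaks sat upstream of the genes more than at other promoters. Measured from the TSS of each member gene, the best peak of the pair had a median offset of −59.5 bp in both replicates and lay upstream for 82.6% and 82.9% of genes, each peak being counted for both genes of its pair. At lone promoters the median offsets were −17.5 and −15.5 bp, with 58.9% and 57.6% upstream. In a divergent pair the space upstream of one gene is also the space upstream of the other, which by itself favours such positions. The best peak lay between the TSSs in both replicates in 435 of 711 pairs (61.2%), and it covered both TSSs in 226 pairs in replicate 1 and 238 in replicate 2. When the best peak of replicate 1 lay outside the stretch, it was on the side of the minus-strand gene in 122 pairs and of the plus-strand gene in 126. Of the 1247 shared peaks, 552 lay between the TSSs and 695 over the first bases of either gene. Midpoints of neighbouring shared peaks were a median of 420 bp apart (quartiles 320 and 540, n = 537), and 14 of these spacings were under 150 bp. Where replicate 1 had 2 or more peaks (458 pairs), the second scored a median of 96, a median of 33 below the best, and in replicate 2 (466 pairs) the second scored 106, a median of 29 below.

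The pairs with the most shared peaks differed in shape. Smim7/Tmem38a, 967 bp apart, had 5, with a best score of 136 in replicate 1 and 134 in replicate 2. The same number lay in Ccni/2010109A12Rik, 2700097O09Rik/Srp54a and H2-T22/Gm6034. In 2700097O09Rik/Srp54a and H2-T22/Gm6034, 48.5% and 35.5% of the 32-base words of the region occur elsewhere in the genome, against a median of 0% over all pairs, and their hotspots were broken into 4 to 6 pieces. The part of repeated sequence in these counts was not tested. The widest common hotspots lay at Srgap2/Fam72a (3514 bp), Peg3/Usp29 (3494 bp), Mepce/Zcwpw1 (3226 bp), Zbtb25/Zbtb1 (2928 bp) and Hnrnpa2b1/Cbx3 (2811 bp). Peg3 and Usp29 are imprinted and expressed from the paternal allele, and the CpG-rich stretch of Hnrnpa2b1/Cbx3 is known as a ubiquitous chromatin opening element.

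Of 22 textbook bidirectional pairs, 10 met the rule. All 10 had a peak in both replicates, which is near the 96.7% of all pairs and so no trait of theirs. Mcm4/Prkdc, of the replicative helicase and of end joining, scored 145 and 143. Atm/Npat, of the DNA damage kinase and of histone gene activation, scored 141 and 146. Brca1/Nbr1 scored 141 and 136, but its best peaks within the region lay 740 bp apart between replicates. They lay 638.5 bp from the centre on the Nbr1 side in replicate 1 and 101.5 bp on the Brca1 side in replicate 2. Replicate 2 also had a peak that overlapped the best peak of replicate 1. It lay past the end of the region and so was not counted, and its score is not given here. Mrps12/Sars2 scored 142 and 140, and Pdcd10/Serpini1 136 and 135. Wrap53/Trp53 and Psmb1/Tbp each scored 134 and 133, and Sdhd/Timm8b, of respiratory complex II and of mitochondrial import, 131 and 134. Col4a4/Col4a3, which encode chains of the collagen IV of specialised basement membranes such as that of the kidney glomerulus, stood apart at 63 and 66. Another 9 of the 22, among them Surf1/Surf2, Hspd1/Hspe1 and Col4a1/Col4a2, have first bases that overlap in this annotation and so are no members.

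Members were richer in CpG than other genes. The CpG ratio, observed over that given by base composition within 500 bp of the TSS, had a median of 0.78 in member genes, against 0.53 in other protein-coding genes, and GC content was 59.9% and 54.5%. Of the member genes, 881 (60.8%) fell in the top 3 deciles of the CpG ratio over all genes and 42 (2.9%) in the lowest 3. Both replicates had a peak within 500 bp of the TSS in 1393 of 1450 member genes (96.1%, 94.9 to 97.0). These peaks did not have to overlap each other. The share was 66.0% of all genes and 63.7% of other genes. When other genes were weighted to the CpG deciles of the members, their share was 93.9%. At equal CpG the gap in called share was thus far smaller than without the weights.

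Scores kept a gap within CpG classes. In decile 5 the median best score in replicate 1 was 125 for member genes and 102 for other genes, in decile 7 it was 134 and 127, and in decile 10 it was 136 and 133. In replicate 2 the same deciles gave 132 and 112, 138 and 132, and 139 and 137. In the poorer decile 3 members were below other genes, at 42 against 51.5 in replicate 1, with 5 called members. In deciles 4 and 5 the called share was 62.1% and 93.3% of member genes, against 48.1% and 86.0% of other genes. The order was the other way in decile 1, with 0 of 7 member genes and 3.47% of other genes. It was also the other way in decile 10, with 98.5% of member genes and 99.6% of other genes. The uncalled member genes of decile 10 were those of Hist1h2ap/Hist1h2br and Hist1h2bq/Hist1h2ao. In both, 100% of the words of the region, counted as above, occur elsewhere in the genome. The part of such repeats in the order in decile 10 was not tested.

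**Figure D4:**
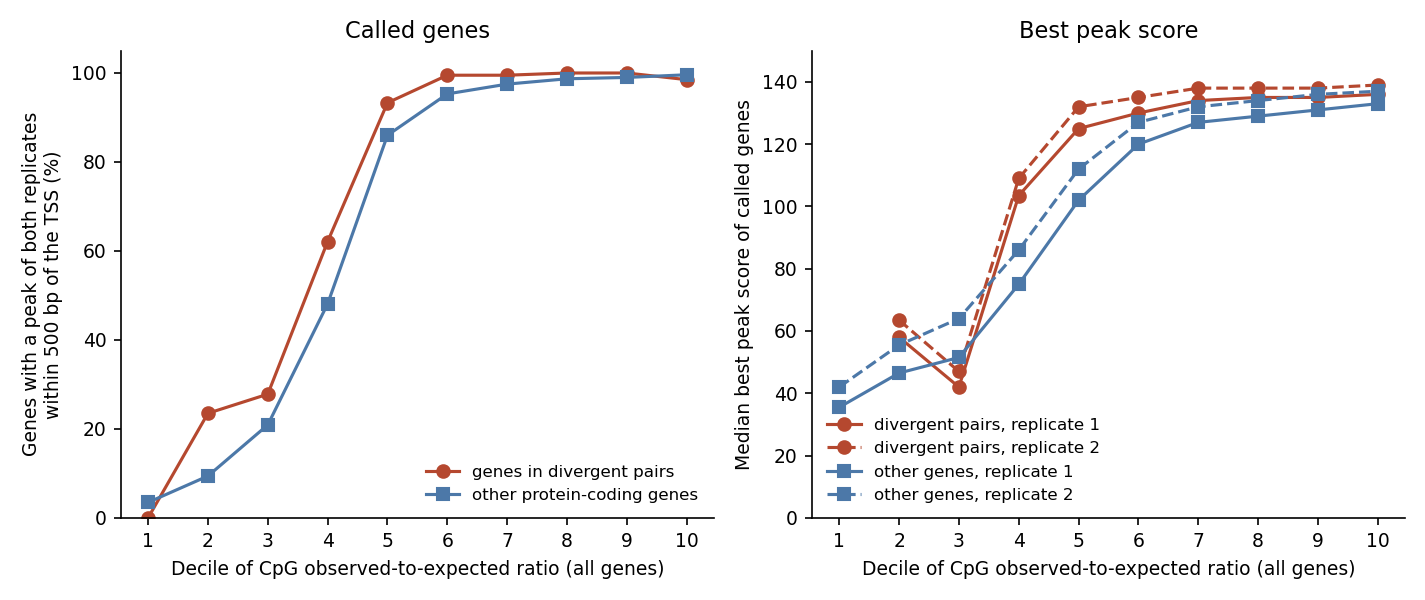
Left: share of genes (%) with a peak of both replicates within 500 bp of the TSS in each decile of the CpG ratio, for genes in divergent pairs and other protein-coding genes. Right: median best peak score of the called genes by decile and replicate; member genes lie above other genes from decile 4 upward, with 125 against 102 in replicate 1 in decile 5 and 136 against 133 in decile 10.

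Motif content was counted from 250 bp before to 50 bp after the TSS, as the letters alone; a match is a description and not a bound site. The ETS letters CCGGAAG stood in 27.6% of member windows, against 11.0% of the windows of all genes and 15.8% of those of other genes weighted to the same CpG deciles. The YY1 letters AAGATGGCG stood in 5.52% of member windows, against 1.72% of all and 2.5% at equal CpG. The NRF1 letters GCGCATGCG stood in 4.9%, against 2.21% and 3.66%. All 3 were commoner in members also at equal CpG. In most pairs, however, the window of a member also holds the TSS of its partner, which the CpG weights do not account for. The part of a second TSS in these shares was not tested. Between the TSSs, the ETS letters stood in 15.5% of stretches, the NRF1 letters in 3.4% and the YY1 letters in 0.816%. The GC box GGGCGG stood in 69.0%, against 43.8% of all genes but 66.1% at equal CpG, so the gap was smaller at equal CpG. CCAAT stood in 43.6%, against 38.6% and 37.0%. The cyclic AMP response element TGACGTCA stood in 4.62%, against 2.43% and 3.51%, and the E-box CACGTG in 11.6%, against 7.83% and 10.5%. The TATA letters TATAAA went the other way, in 4.14% of member windows, against 12.7% of all and 7.49% at equal CpG. The ZFP143 letters ACTACAATT stood in 0.759%, against 0.524% and 0.551%, and the CTCF-like letters AGGTGGCAG in 0.759%, against 0.827% and 0.809%. Windows of both genes of a close pair share most of their bases, so member windows are not independent of each other.

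**Figure D5:**
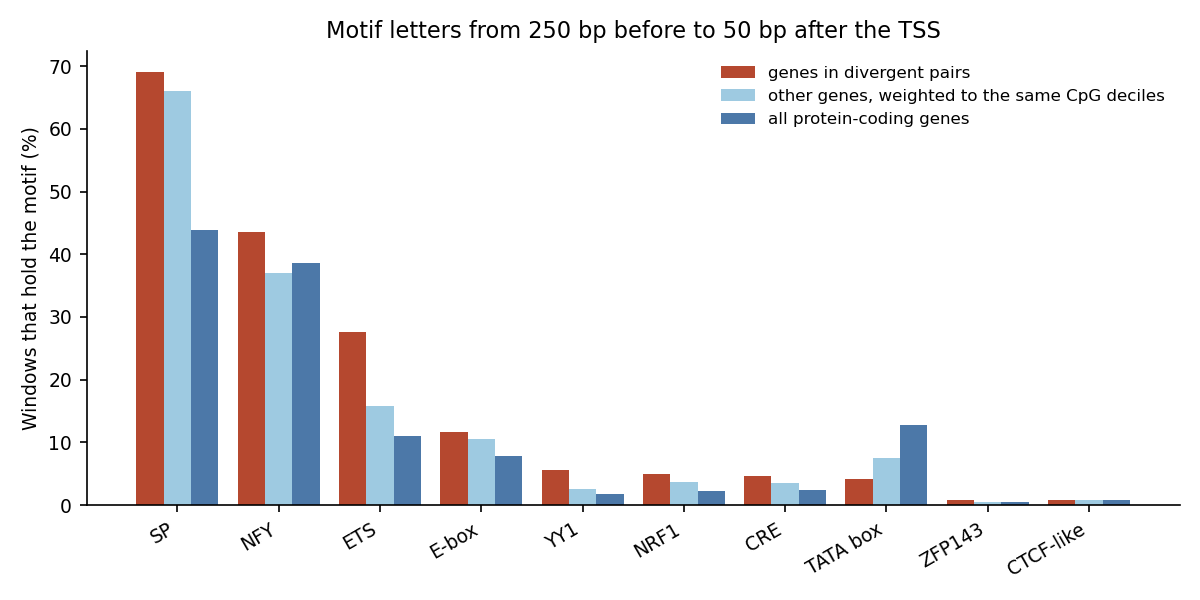
Share of windows (%) from 250 bp before to 50 bp after the TSS that hold each motif on either strand, for genes in divergent pairs, for other genes weighted to the same CpG deciles and for all protein-coding genes. ETS letters stand in 27.6% of member windows, against 15.8% at equal CpG and 11.0% of all genes; TATA letters are rarer in members.

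Motifs were also counted within the open sites themselves. The best replicate 1 peak held CCAAT in 283 of 711 called pairs (39.8%), against 26.7% of 12382 called genes outside the pairs, and 2 or more copies in 118 pairs (16.6%), against 8.36% of the other genes. ETS letters stood in 20.8% of those peaks, against 12.2%, NRF1 letters in 3.8%, against 2.27%, YY1 letters in 2.95%, against 1.5%, and ZFP143 letters in 0.985%, against 0.436%. The gap was widest in percentage points for CCAAT, and as a ratio for the rare ZFP143 letters, which 7 pairs held. The E-box stood in 8.02%, against 6.74%, the cyclic AMP response element in 3.66%, against 2.84%, the CTCF-like letters in 0.281%, against 0.46%, the GC box in 60.9%, against 56.1%, and TATA letters in 1.55%, against 2.27%. Pairs with CCAAT in the best peak had median scores of 137 and 140 in the 2 replicates, against 132 and 136 for pairs without it. The same held among genes outside the pairs, at 132 and 136 with CCAAT and 118 and 125 without. ETS letters went with no such gap among pairs, whose medians were 134 with and 134 without them in replicate 1 and 136.5 and 138 in replicate 2. Among genes outside the pairs they did, at 130 with and 120 without in replicate 1 and 135 and 127 in replicate 2.

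Between the TSSs, CCAAT stood in 14.4% of the 306 stretches of pairs under 100 bp apart, 46.3% from 100 to under 200 bp, 57.3% from 200 to under 300 bp, 67.2% from 300 to under 500 bp and 72.1% from 500 to 1000 bp. Longer stretches hold more letters, so such shares can rise with length alone. The 561 copies lay a median of 56 bp from the nearer TSS (quartiles 29 and 99). Only copies between the TSSs were counted, so this distance is bounded by the length of the stretch and shows no preferred position. Most copies stood in Prr11/Ska2, of which Ska2 is a kinetochore protein, with 10 in the stretch of 526 bp and scores of 138 and 145. Rnf5/Agpat1 and Srgap2/Fam72a had 8 each and Xrcc3/Zfyve21 had 7. These pairs were picked for their copy number, and their scores of 145 and 146, 142 and 144, and 148 and 147 are a description.

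The genes of the pairs fell unevenly over functional groups, set here beside the 6.97% of all protein-coding genes that are members. DNA replication and repair had 36 of 130 genes in pairs (27.7%). Of their 38 pairs, 37 had a peak in both replicates, against 711 of 735 over all pairs (96.7%). Counts of called pairs near that share, here and below, are no trait of a group. Examples are Orc3/Rars2, of the origin recognition complex, at 128 and 134, Lig4/Abhd13, of end joining, at 121 and 127, and Emc3/Fancd2, of cross-link repair, at 129 and 136. Cilium and centrosome genes had 24 of 100 in pairs (24.0%), all 24 called, such as Tnfaip1/Ift20 at 140 and 140 and Cep44/Fbxo8 at 120 and 120. The mitochondrial ribosome had 18 of 78 (23.1%) and the respiratory chain 23 of 104 (22.1%), with all 18 and all 23 pairs called. Mrps18b/Ppp1r10 scored 141 and 143, Helq/Mrps18c 129 and 136, Sdha/Ccdc127 134 and 135 and Tatdn1/Ndufb9 129 and 131. No pair joined 2 genes of the mitochondrial ribosome list or 2 of the respiratory chain list.

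Other groups lay nearer to the share of all genes or below it. The proteasome had 7 of 49 genes in pairs (14.3%), the cell cycle 13 of 96 (13.5%), tRNA synthetases 5 of 42 (11.9%), the cytoplasmic ribosome 8 of 75 (10.7%) and germ line genes 7 of 78 (8.97%). Rps28/Ndufa7, 10 bp apart, joins a cytoplasmic ribosomal protein to a subunit of respiratory complex I and scored 126 and 137. Zinc finger genes had 20 of 415 (4.82%), collagens 2 of 42 (4.76%) and genes with a clone-type name 77 of 1767 (4.36%). Immune genes had 5 of 227 (2.2%), and 3 of their 5 pairs were called: Plgrkt/Cd274, of which Cd274 encodes the PD-L1 checkpoint ligand, scored 80 and 89, Il17rb/Chdh 77 and 76 and H2-T22/Gm6034 116 and 125. Developmental transcription factors had only 3 of 164 (1.83%): Rhno1/Foxm1 at 130 and 140, Sox6/1110004F10Rik at 90 and 87 and Foxa3/Sympk at 148 and 147. These scores belong to the pair, and the best peak of Foxa3/Sympk covered the TSS of Sympk. For genes of the same groups outside divergent pairs, a peak of each replicate within 500 bp of the TSS was counted, overlapping or not. Such peaks were present in 90 of 94 cases for DNA replication and repair and 56 of 60 for the mitochondrial ribosome. For developmental transcription factors it was 131 of 161 (81.4%), against 63.7% of all genes outside pairs. The shares were lower than that for germ line genes (47.9%), immune genes (87 of 222, 39.2%) and genes with a clone-type name (28.5%).

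Histone clusters were the group most often in pairs, with 27 of 67 genes (40.3%), and 13 of their 14 pairs joined 2 histone genes, mostly an H2A to an H2B gene. A peak lay in both replicates in 11 of the 14. Hist1h2bf/Hist1h2ad scored 132 and 138 and Hist1h2ae/Hist1h2bg 119 and 116. The 3 others, Hist1h2ap/Hist1h2br, Hist1h2bq/Hist1h2ao and Hist1h2ba/Hist1h2aa, had neither peak nor hotspot, with CpG ratios of 0.91, 0.92 and 0.71 over the region. In the first 2, 100% of the 32-base words of the region occur elsewhere in the genome, so a read of that length cannot be placed there uniquely. The treatment of such reads is in none of the sources used here, and their part in the missing calls was not tested. In Hist1h2ba/Hist1h2aa, which encode testis-specific H2B and H2A variants, 16.5% of words did, less than in the called Hist1h2bf/Hist1h2ad with 59.9%.

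The other 21 pairs without a peak in both replicates had CpG ratios of 0.1 to 0.47 over the region. Over all 24 such regions the median CpG ratio was 0.28, against 0.77 in called regions, and GC content was 51.7%, against 59.6%. Several hold a gene known from few tissues, and some of these genes had a shared peak at another TSS (Nmur1 at 2 of 4, Smyd1 at 3 of 6). Il11/Tmem190, Nmur1/Tex44 and Patl2/Terb2 had no peak within 1000 bp of the region in either replicate, and Tex44 is known from testis, Patl2 from oocytes and Terb2 from meiotic telomeres. Smyd1/Cd8b1 joins a muscle methyltransferase to a T cell coreceptor, and Pecam1/Milr1 an endothelial adhesion protein to a mast cell receptor. No annotated TSS of Pecam1 had a shared peak.

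In 15 of the 24 pairs, Nmur1/Tex44 and Smyd1/Cd8b1 included, at least 1 of the genes had a shared peak at another TSS. Rps2, a ribosomal protein gene that all cells use, had a shared peak at 5 of its 8 annotated TSSs, the closest 1947 bp from the 5'-most one, and the nearest peak to the region scored 140 in replicate 1 and 142 in replicate 2. Xrcc1, the scaffold of single-strand break repair, had one 861 bp away, with 145 and 147 for the nearest peaks. Nt5c3b had one 719 bp away, and there and at Pinlyp/Xrcc1 a hotspot at the ceiling of 100 reached into the region in both replicates. Dgcr2 had its closest open TSS at 6869 bp, Ccnt1 at 3243 bp and Trim28 at 25038 bp. The testis kinase gene Tssk2 beside Dgcr2 and the spermatid gene Klhl10 beside Nt5c3b had no shared peak at any of their TSSs, whereas both Best1 (1 of 3) and its partner Rab3il1 (3 of 7) had one at other TSSs.

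A few CpG-poor pairs were open. Of 21 regions with a CpG ratio under 0.3, 7 had a peak in both replicates, against 96.7% of all pairs, and the 7 were named after their values were seen. The CpG deciles above are of genes, within 500 bp of the TSS, and not of regions. In deciles 1, 2 and 3, up to a ratio of 0.27, 3.47%, 9.4% and 20.9% of other genes were called. Of member genes there, 0 of 7, 4 of 17 (23.5%) and 5 of 18 (27.8%) were called. Haghl/Ccdc78 scored 113 and 119, Nisch/Sema3g 93 and 102, Kirrel2/Nphs1 91 and 92, Sncg/Mmrn2 73 and 83, Pcdh12/Rnf14 42 and 47, Stap2/Mpnd 36 and 39 and Ifit1bl2/Ifit1 25 and 35. All 7 lay below the lower quartile of called pairs in both replicates. Several hold genes of restricted use: Nphs1 encodes nephrin of the kidney podocyte slit diaphragm, Mmrn2 and Pcdh12 are endothelial and Ifit1 is induced by interferon. The 4 pairs whose best score was under 60 in both replicates were Ifit1bl2/Ifit1, Stap2/Mpnd, Pcdh12/Rnf14 and Bhmt2/Dmgdh, the last of which scored 33 and 57.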

How the data were processed

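DNase-seq of whole embryos of 11 days was deposited as 1 peak list and 1 hotspot list for each of 2 replicates, on mm10 per the file headers. Peaks carry a deposited score, a whole number made in a way that no header or label explains. It ranks peaks within a list, and its ratios are no ratios of signal. Hotspots carry a deposited −log10 q value with a ceiling of 100. Aligner, peak caller, tool versions and sequencing depth: not given in the sources used here.

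Pairs came from GENCODE M21, and bases from the GRCm38 assembly. A peak or hotspot counted with an overlap of at least 1 bp. Other genes were measured in a window of 1129 bp (628 bp upstream and 500 bp downstream), the median pair length. With 1 group of 2 libraries there is no contrast between samples and no test, so counts and medians stand beside the same over all genes. The samples are labelled biological replicates, and nothing says that they came from separate litters. Collagens were matched by whole symbol, which leaves out Col4a3bp, and the DNA replication and repair list (130 of 132 genes found) was written after the files were seen. The check of 32-base words counted exact matches on either strand over all assembled chromosomes. Overlap, sharing and pair finding were tested on simulated data. Python 3.11.15, numpy 2.4.6, pandas 2.3.3, scipy 1.17.1 and matplotlib 3.10.9 were used.

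Named pairs are the 10 with the best mean rank of score, the 6 with most shared peaks, the 5 with the widest common hotspot, those with a peak in 1 replicate only, up to 15 with none by increasing distance, the 4 closest and 4 widest, members of a list of 22 textbook pairs and up to 4 examples of each of 15 functional groups. A few of the pairs so chosen are not reported here. Pairs outside this rule were chosen after their values were seen: those with most CCAAT copies, CpG-poor called pairs, pairs scoring under 60, the remaining pairs without a peak and a few histone, repeat and alternative-TSS examples. Members and lists were chosen with earlier results of these data known.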

Additional observations from a re-analysis of the deposited data

How the results depend on the processing

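The 6 summary counts and medians were recomputed under other settings, 61 values in all, of which 60 stayed within 1.5 times the reported count or within 1 SD of the reported median. Part of this was fixed in advance. Counts close to the number of all pairs cannot rise by 1.5 times. The median without either replicate must stay within 1 SD, because that SD comes from the same 2 replicate medians. The exception was the number of pairs with 2 or more shared peaks, which was 227 with 250 bp added on each side and 391 with 500 bp. Leaving out either replicate gave 711 to 713 pairs with a peak, 713 to 715 with a hotspot, 458 to 466 with 2 or more peaks, 463 to 470 with the best peak between the TSSs, 22 to 24 without a peak and a median score of 134 to 137. With protein-coding transcripts only, 763 pairs were found and 738 had a peak in both replicates. With TSSs at most 500 bp apart, 648 of 667 pairs did. Among the better-scoring 50% of peaks, 707 pairs were called. Settings chosen after seeing the data were TSSs at least 1 bp apart and 1 pair per locus. No paired analysis was possible because there is only 1 group. Depth is unknown, and hotspot values at the ceiling cannot be ranked.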

Other observations

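In 5 pairs the best scores of both replicates lay more than 20 apart, each higher in replicate 2. Spata17/Gpatch2 scored 102 in replicate 1 and 126 in replicate 2, Zswim7/Ttc19 117 and 138, Lrrc63/Lcp1 99 and 123, Tssk3/Fam229a 57 and 87 and Bhmt2/Dmgdh 33 and 57. Spata17 and Tssk3 are known from testis and Lcp1 from blood cells. The pairs were picked for this difference, and with 1 library in each replicate its source was not tested.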
